A study of Mus musculus with 4 samples.

Results

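Chemokine genes of 2 related kinds were followed in a mouse hepatic stellate cell line: the CC chemokines Ccl2, Ccl3, Ccl4, Ccl5 and Ccl7, and the Cxcr3 ligands Cxcl9, Cxcl10 and Cxcl11. They were chosen by name, and each was found on the array, through 10 of the 41146 probes with a value on every array (8 of 26793 gene names). IMS/N cells are stellate cells of normal 129/Sv mice, made immortal with SV40. All 4 cultures are of this 1 line. The culture labelled PA and ADSC medium received palmitic acid (PA, a saturated fatty acid) together with medium taken from cultures of adipose tissue-derived stem cells (ADSCs). These stem cells came from the inguinal fat of male C57BL/6J mice aged 8 to 10 weeks. One further culture received PA, another ADSC medium, and the control neither. The labels state neither the dose and duration of PA nor which medium replaced ADSC medium in the other cultures. The question of the series is whether ADSCs restore stellate cells that PA has activated.

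Chemokines are small secreted proteins that draw leukocytes along a gradient by binding receptors on them. Ccl2 and Ccl7 act through Ccr2 and bring monocytes into tissue, while Ccl3, Ccl4 and Ccl5 attract monocytes, T cells and NK cells, with Ccr1 as a receptor of Ccl3 and Ccl5. Cxcl9, Cxcl10 and Cxcl11 share the receptor Cxcr3 of activated T cells and NK cells and are classic interferon-induced genes. In injured liver, activated stellate cells are among the known sources of Ccl2, Ccl5 and Cxcl10.

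Each condition was measured on 1 one-colour array, so every difference below describes 2 arrays, and no test or p-value was possible. Levels below are log2 intensities after quantile normalization, and a difference is 1 level minus another. All 4 arrays lay on 1 slide and were read in 1 scan, no spot was saturated, and 67.5% to 70.0% of probes were well above background on each array. As a measure of error, 181 probes occur on 10 spots of every array. From these, 2 single spots differed with an SD of 0.059 at levels from 13, 0.080 at levels of 7 to 9 and 0.229 at levels of 3 to 5. It leaves out the variation between cultures, and the number of arrays limits the precision. Levels of different probes are not set against each other, except in choosing a gene's brightest probe and in sums of marker levels. In those sums bright probes weigh most. Of 10 stellate and fibroblast markers, 8 were well above background on all 4 arrays, Col1a1 and Vim among them. Lrat, which marks quiescent stellate cells, and Reln were on none. Acta2, the smooth muscle actin of activated stellate cells, was 2.70-fold lower with ADSC medium than in control and 2.02-fold lower with PA and ADSC medium than with PA. In the second of these comparisons Des was 2.20-fold lower and Pdgfrb 2.51-fold higher. The part of these changes in the chemokine results was not tested.

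Against control, PA was accompanied by a level 2-fold higher or more for 5 of the 7 members that could be compared, beside 1.09% of 18209 genes. Ccl3 was not well above background on either of these arrays. These were Ccl4, Ccl5, Cxcl9, Cxcl10 and Cxcl11. None was at least 2-fold lower (0.599% of all genes). On the other pair of arrays, PA and ADSC medium against ADSC medium, 6 of the 8 passed 2-fold upward (1.26% of 18467 genes), Ccl2 in addition, and again none downward (0.477%). Both pairs share the slide but no array. With PA and ADSC medium against PA, 1 of the 8, Ccl4, was at least 2-fold higher (1.75% of 18751 genes) and none lower (0.507%). By any amount 7 were higher, beside a median of -0.02 over all genes. Of these 7, Ccl3 was a lower bound, whose sign the method fixes. Cxcl9 (0.19) lay within the spread of single spots at its level (0.229). Cxcl11 alone of the 8 was lower. In RNA of whole cultures, a change in the share of cells that express a gene and a change in RNA per cell cannot be told apart.

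**Figure D1:**
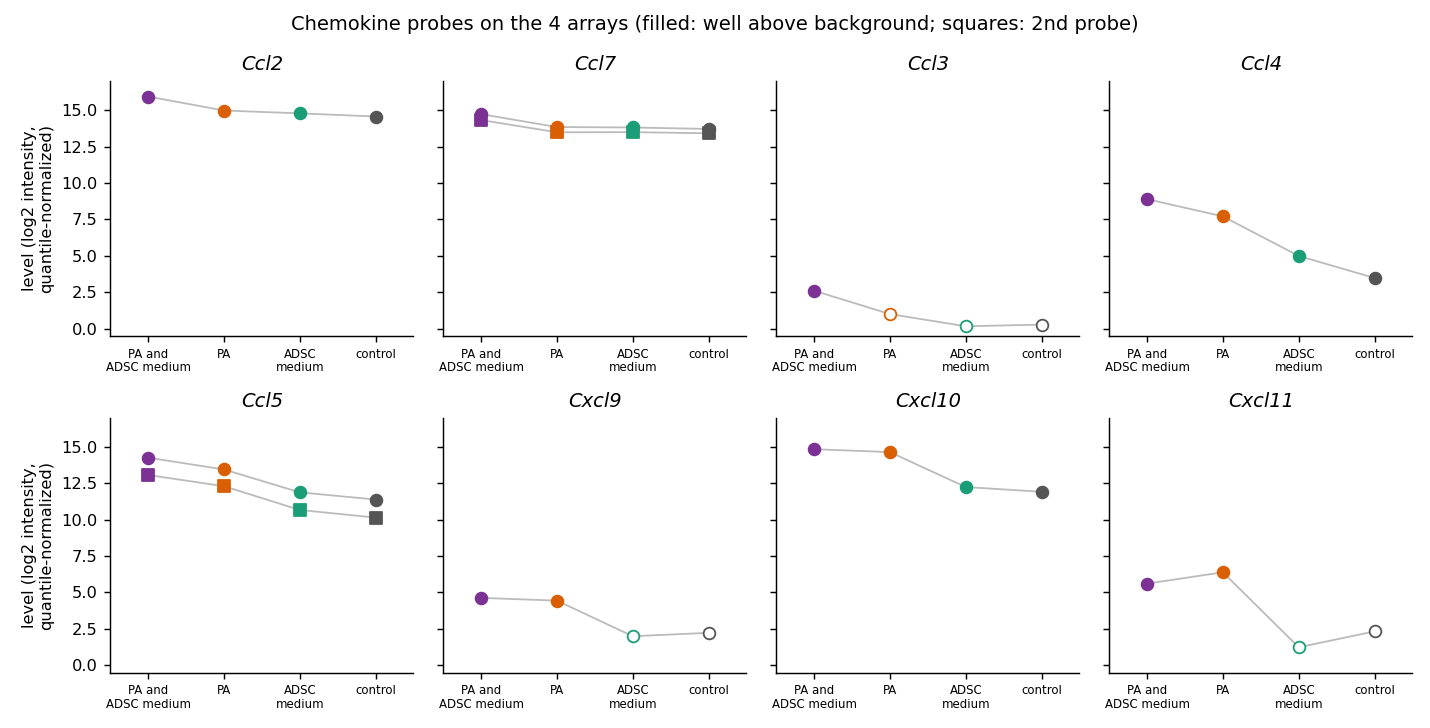
Level of each chemokine probe (log2 intensity, quantile-normalized) on the 4 arrays, 1 array per condition, with filled points where the probe was well above background and squares for the second probe of Ccl5 and Ccl7. Ccl2 and Ccl7 stand highest on the PA and ADSC medium array, with the other 3 arrays close together, whereas Ccl4, Ccl5 and Cxcl10 separate the 2 arrays with PA from the 2 without it.

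Ccl2, the monocyte chemoattractant, was bright on every array. Its probe (chromosome 11, 81850650 to 81850709, plus strand, mm9) had a level of 15.94 with PA and ADSC medium, 14.98 with PA, 14.78 with ADSC medium and 14.56 in control. The array with both treatments therefore stood apart, and the other 3 lay within 0.41 of each other. Ccl2 was 2.59-fold higher with PA and ADSC medium than in control, 1.94-fold higher than with PA and 2.23-fold higher than with ADSC medium. With PA it was 1.33-fold higher than in control, a difference of 0.41 that was 0.28 with each array scaled to its 75th percentile.

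The Ccl2 probe is printed on 10 spots, which gives this gene its own error. Before normalization between arrays, the spots had intensities of 61195 to 66274 with PA and ADSC medium, with a median of 62718. They had 34087 to 37155 with PA (median 35197), 24516 to 27217 with ADSC medium (median 26750) and 21924 to 24416 in control (median 23067). The spots of the 4 arrays did not overlap, although the lowest ADSC medium spot, which the scanner software marked as an outlier, came close to the highest control spot on the log2 scale (14.581 against 14.576). The SD over spots of 1 array was 0.034 to 0.045. Taken spot by spot, the difference of PA and ADSC medium from PA was 0.84 ± 0.02 (SD, 10 spots) without normalization, and that of PA from control was 0.61 ± 0.02. The second of these is larger than the 0.41 found after normalization. Spots of 1 array repeat the measurement and not the culture.

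**Figure D2:**
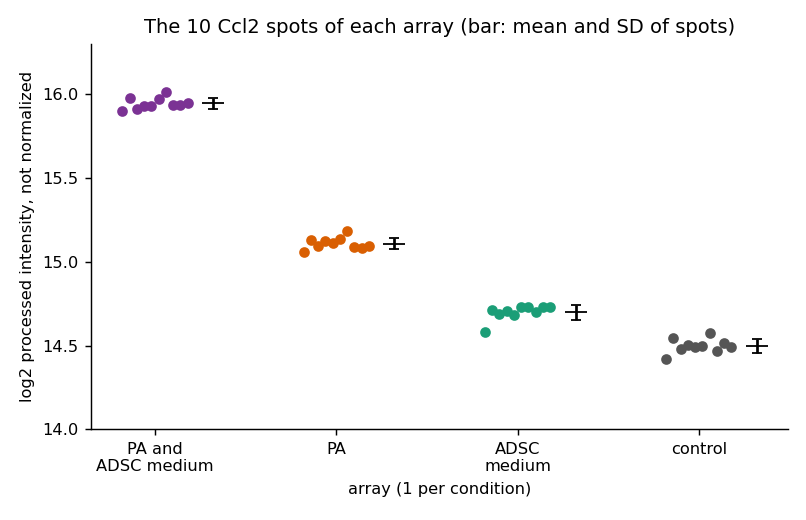
The 10 Ccl2 spots of each array as log2 processed intensity without normalization between arrays, with the mean and SD over spots as bars. The spots run from 15.90 to 16.02 with PA and ADSC medium and from 15.06 to 15.18 with PA, against 14.58 to 14.73 with ADSC medium and 14.42 to 14.58 in control.

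Ccl7, a related Ccr2 ligand, was also highest on the array with both treatments. The gene lies next to Ccl2, with no protein-coding gene between them in the RefSeq annotation of GRCm38.p6. It was measured by 2 probes, at 81860656 to 81860715 and at 81860504 to 81860563 of chromosome 11 (plus strand, mm9). The sequence of the second is shown because it repeats the result of the first on another stretch of the same transcript. No base is in capitals.
Ccl7 probe: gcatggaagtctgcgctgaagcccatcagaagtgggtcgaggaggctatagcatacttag
The first probe had levels of 14.72 with PA and ADSC medium, 13.84 with PA, 13.81 with ADSC medium and 13.71 in control. The second had 14.32 with PA and ADSC medium, 13.48 with PA, 13.49 with ADSC medium and 13.41 in control. On both probes 3 arrays lay together and the array with both treatments lay above them. By the first probe, Ccl7 was 1.84-fold higher with PA and ADSC medium than with PA, 1.89-fold higher than with ADSC medium and 2.02-fold higher than in control. This last call rests on the threshold: it was 1.88-fold by the second probe, and 0.98 on the log2 scale by the first with the 75th percentile scaling. PA (0.13) and ADSC medium (0.10) each differed little from control, beside an SD of 0.059 between single spots.

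For Ccl2 and Ccl7 the difference between the arrays with and without PA was larger where ADSC medium was present. It was 1.16 with ADSC medium against 0.41 without it for Ccl2, and 0.92 against 0.13 for Ccl7. The excess, 0.74 and 0.78, was above the 95th percentile of the same quantity over 17355 genes well above background on all 4 arrays (0.52) and below the 99th (0.97). They ranked 381st and 327th from the top. For Ccl5 the 2 PA differences were 2.38 and 2.07 (excess 0.32), and for Cxcl10 2.60 and 2.73 (excess -0.13). For Ccl4 they were 3.90 and 4.23, an excess of -0.33 that turned to 0.58 with the normexp background.

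Ccl3, Ccl4 and Ccl5 attract an overlapping range of leukocytes and lie close together on chromosome 11, with Ccl9 and Ccl6 between Ccl5 and Ccl3 in GRCm38.p6. The Ccl3 probe (83461358 to 83461417, minus strand, mm9) was well above background on the PA and ADSC medium array only. Its processed intensity was 6.38 ± 1.30 there (error given by the scanner software), 2.23 ± 1.13 with PA, 1.09 ± 1.09 with ADSC medium and 1.19 ± 1.19 in control. Against the lowest level well above background on the other array, Ccl3 was at least 1.45-fold higher than with PA, at least 1.23-fold higher than with ADSC medium and at least 1.13-fold higher than in control. In these bounds the dimmer value is that floor, or the probe's own level where it was higher.

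Ccl4 ranked first in the difference with PA among the genes measured on both arrays, 17607 against control and 17729 in the presence of ADSC medium. Its probe (83478052 to 83478111, plus strand, mm9) had levels of 8.89 with PA and ADSC medium, 7.71 with PA, 4.99 with ADSC medium and 3.48 in control, well above background on all 4. No array was close to another. Its intensities were 476 ± 47.6, 243 ± 24.3, 29.8 ± 3.15 and 10.3 ± 1.51 in the same order (error given by the scanner software). Ccl4 was 18.8-fold higher with PA than in control and 14.9-fold higher with PA and ADSC medium than with ADSC medium. With both treatments it was 42.6-fold higher than in control. Of the 5 members compared between ADSC medium and control it was the one at least 2-fold higher (2.86-fold, against 0.533% of 18198 genes), and none of the 5 was as much lower (0.121%). Ccl3, Cxcl9 and Cxcl11 were not well above background on either array. The size depends on the background correction: with normexp, which adds an offset to every spot, the PA difference was 1.97 in place of 4.23, below those of Cxcl10 (2.75) and Ccl5 (2.04), so that the first rank against control was lost. The difference of PA and ADSC medium from PA was then 0.97 in place of 1.18, and the ADSC medium difference 0.40 in place of 1.51.

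Ccl5, which recruits T cells and monocytes, was measured by a probe at 83339296 to 83339355 of chromosome 11 (minus strand, mm9) and by a second probe with no position in the files. The first had levels of 14.26 with PA and ADSC medium, 13.45 with PA, 11.88 with ADSC medium and 11.38 in control. The second had 13.07 with PA and ADSC medium, 12.30 with PA, 10.67 with ADSC medium and 10.14 in control. Both showed the arrays with PA above those without it, and in each pair the array with ADSC medium higher. Ccl5 was 4.18-fold higher with PA than in control by the first probe and 4.45-fold by the second. It was 1.75-fold and 1.71-fold higher with PA and ADSC medium than with PA, and 7.34-fold and 7.60-fold higher than in control. With ADSC medium it was 1.41-fold higher than in control by the first probe.

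**Figure D3:**
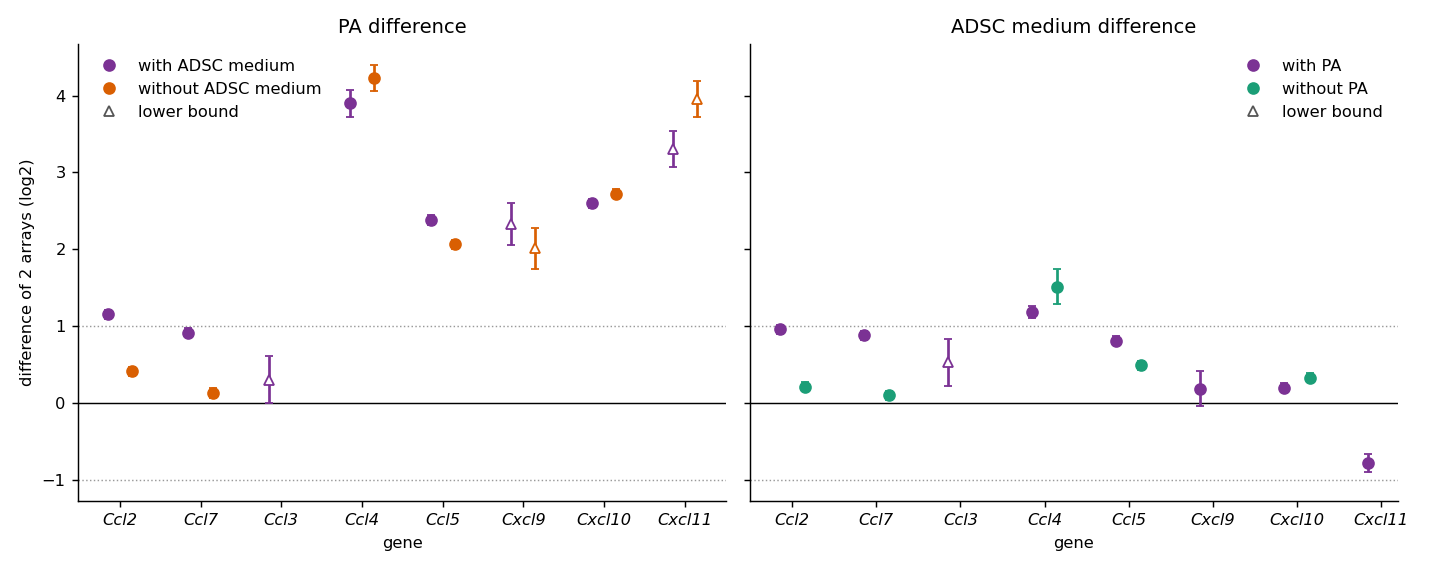
Difference of 2 arrays (log2) for each chemokine, for PA with and without ADSC medium (left) and for ADSC medium with and without PA (right), with bars for the SD of a difference between 2 single spots at those levels, open triangles for lower bounds and dotted lines at 2-fold. PA differences run from 0.13 for Ccl7 without ADSC medium to 4.23 for Ccl4, while ADSC medium differences lie between -0.78 for Cxcl11 and 1.51 for Ccl4.

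The 3 Cxcr3 ligands lie near each other on chromosome 5. Ordered by start coordinate in GRCm38.p6 among protein-coding genes and the members, Art3 came between Cxcl9 and Cxcl10, and Cxcl11 followed Cxcl10. This order does not show whether the genes overlap. Promoter sequences of RefSeq (GRCm38.p6, minus strand for these genes, from 250 bases before to 50 after the gene's start) were matched for Cxcl9, Cxcl10 and, among the CC chemokines, Ccl3. Those of Cxcl10 (chr5:92348840-92349139) and Cxcl9 (chr5:92328030-92328329) are shown because both genes were higher on the arrays with PA. Capitals mark matches, on either strand, to the core of the interferon-stimulated response element (ISRE, 2 copies of GAAA with 2 bases between) and to the NF-kB consensus.
Cxcl10 promoter: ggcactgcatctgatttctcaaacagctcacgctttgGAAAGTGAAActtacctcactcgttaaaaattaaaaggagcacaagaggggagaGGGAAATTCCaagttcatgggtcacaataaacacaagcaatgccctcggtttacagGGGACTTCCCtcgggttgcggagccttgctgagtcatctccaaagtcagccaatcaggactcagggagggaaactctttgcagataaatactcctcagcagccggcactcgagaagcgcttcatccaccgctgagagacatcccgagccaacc
Cxcl9 promoter: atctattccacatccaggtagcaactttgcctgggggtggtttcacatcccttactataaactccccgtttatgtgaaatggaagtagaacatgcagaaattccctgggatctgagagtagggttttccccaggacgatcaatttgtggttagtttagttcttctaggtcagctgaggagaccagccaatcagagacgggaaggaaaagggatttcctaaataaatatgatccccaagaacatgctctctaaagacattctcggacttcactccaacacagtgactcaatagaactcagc
The Cxcl10 promoter held 1 ISRE core, at 213 to 204 bases before the start, and 2 NF-kB matches, at 159 to 150 and at 103 to 94 bases before it. No match overlapped another. Neither motif was matched in these windows of Cxcl9 and Ccl3. Of 32851 promoters in the table, 3.44% held the ISRE core and 4.51% the NF-kB consensus. A match describes letters and not a bound site.

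Cxcl10 was 6.61-fold higher with PA than in control. Its probe (chromosome 5, 92775781 to 92775840, minus strand, mm9) had levels of 14.84 with PA and ADSC medium, 14.64 with PA, 12.24 with ADSC medium and 11.91 in control. The 2 arrays with PA formed one group and those without it another. The difference with PA ranked 12th among the 17607 genes measured on both arrays. With PA and ADSC medium the level was 6.05-fold higher than with ADSC medium, 7.60-fold higher than in control and 1.15-fold higher than with PA. The difference between the 2 arrays with PA, 0.20, was a small part of the PA difference, 2.73, though above the spread of single spots (0.059). It ranked 3500th from the top among the 17899 genes measured on both of these arrays.

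Cxcl9 and Cxcl11 were dim and were well above background only on the 2 arrays with PA. The Cxcl9 probe (92752191 to 92752250, minus strand, mm9) had an intensity of 25.5 ± 2.74 with PA and ADSC medium and 24.3 ± 2.63 with PA. It had 3.88 ± 1.08 with ADSC medium and 4.19 ± 1.14 in control, neither well above background. Cxcl9 was at least 4.04-fold higher with PA than in control and at least 5.02-fold higher with PA and ADSC medium than with ADSC medium. Against control, PA and ADSC medium gave at least 4.60-fold. With the normexp background these bounds were 0.38, 0.47 and 0.47 on the log2 scale in place of 2.01, 2.33 and 2.20, which ended all 3 of the 2-fold calls. The 2 arrays with PA differed by 0.19, within the spread of single spots at that level (0.229).

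Cxcl11 was the one member that was lower with PA and ADSC medium than with PA. Its probe is shown because its 60 bases cover 152 bases of the genome (92790123 to 92790274, minus strand, mm9), so that it does not match 1 unbroken stretch. No base is in capitals.
Cxcl11 probe: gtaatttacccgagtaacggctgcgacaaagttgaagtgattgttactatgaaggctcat
RefSeq lists Cxcl11 as a transcribed pseudogene in GRCm38.p6, the C57BL/6J genome, and the cells measured here are of 129/Sv. The intensity was 50.3 ± 5.14 with PA and ADSC medium and 95.1 ± 9.56 with PA. It was 2.35 ± 1.07 with ADSC medium and 4.53 ± 1.19 in control, neither well above background. Cxcl11 was at least 15.6-fold higher with PA than in control and at least 9.90-fold higher with PA and ADSC medium than with ADSC medium. Against control, PA and ADSC medium gave at least 9.07-fold. With PA and ADSC medium it was 1.72-fold lower than with PA. This difference of -0.78 was above the spread of single spots (0.122), and was -0.42 with the normexp background. With normexp the bound of PA against control was 1.15 in place of 3.96. The bounds of PA and ADSC medium were 0.85 against ADSC medium and 0.74 against control, in place of 3.31 and 3.18, both under 2-fold.

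Over the 7 members compared, the median difference of PA from control was 2.07, against -0.008 over all 18209 genes. With PA and ADSC medium against PA the median of 8 was 0.67 (all genes, -0.02), and with PA and ADSC medium against control it was 2.54, with 7 of 8 at least 2-fold higher (1.81% of 18252 genes) and none lower (0.422%). For ADSC medium against control the median of the 5 compared was 0.33 (all genes, -0.006). The median of 8 was 2.36 (all genes, -0.02) for the pair of arrays with ADSC medium, with PA against without it. All but the median of ADSC medium against control include lower bounds. Comparisons that share an array are not independent: PA against control and PA and ADSC medium against PA share the PA array. Among the 17355 genes well above background on all 4 arrays, 124 (0.714%) were at least 2-fold higher with PA on both separate pairs, and 3 of the 5 members among them were, namely Ccl4, Ccl5 and Cxcl10.

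**Figure D4:**
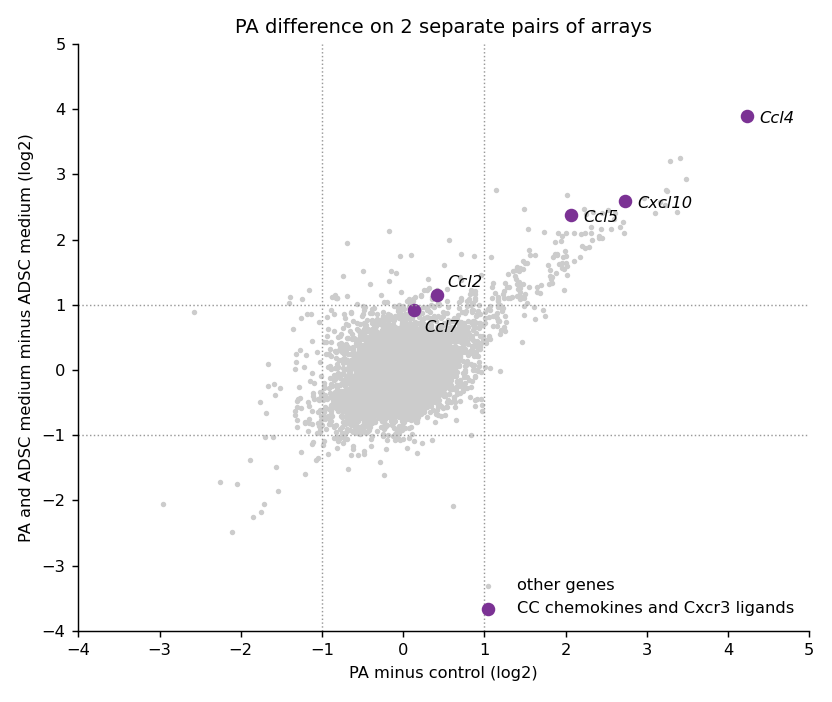
PA difference on the 2 pairs of arrays that share no array, for 17355 genes well above background on all 4 arrays, with 5 chemokines named and dotted lines at 2-fold. Ccl4 lies farthest along both axes (4.23 and 3.90), Ccl5 and Cxcl10 follow, Ccl2 passes 2-fold on the pair with ADSC medium only, and Ccl7 on neither.

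The authors' deposited table of probes higher with PA than in control holds 1580 probes (3.84% of those on the array) and includes 5 of the 10 chemokine probes, those of Ccl4, Cxcl9, Cxcl10 and Cxcl11 and the first of Ccl5. The authors' deposited table of probes higher with PA than with PA and ADSC medium holds 920 probes (2.24%) and includes 1 of the 10, that of Cxcl11. Both tables give names without values, and the sources do not state their threshold.

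Other chemokines were counted beside the members. Of 15 further CC chemokines on the array, 9 were compared for PA against control, 1 of them, Ccl12, by a lower bound. By these values none was 2-fold higher (1.09% of all genes) or lower (0.599%), with a median of -0.21. Ccl12 was dim and well above background only on the 2 arrays with PA (2.62 with ADSC medium and 2.50 without). Its bound of 1.05-fold cannot show whether it passed 2-fold. Ccl8, a monocyte chemoattractant encoded near Ccl2 and Ccl7, had levels of 9.01 with PA and ADSC medium, 6.85 with PA, 8.29 with ADSC medium and 7.33 in control. It was thus lowest with PA and highest with both treatments, 4.46-fold higher than with PA. Ccl20, a ligand of Ccr6, differed by 0.84 with PA from control and by -0.53 with PA and ADSC medium from PA. Ccl11, which attracts eosinophils, was not well above background on any array. Of 13 other chemokines, the neutrophil attractants Cxcl1 and Cxcl5 were 5.81-fold and 21.6-fold higher with PA and ADSC medium than with PA. Against control, PA alone gave a difference of 0.56 for Cxcl1 and of -0.69 for Cxcl5. Cxcl12, a constitutive chemokine of stromal cells, differed by -0.18 with PA and by 0.10 with PA and ADSC medium against PA.

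**Figure D5:**
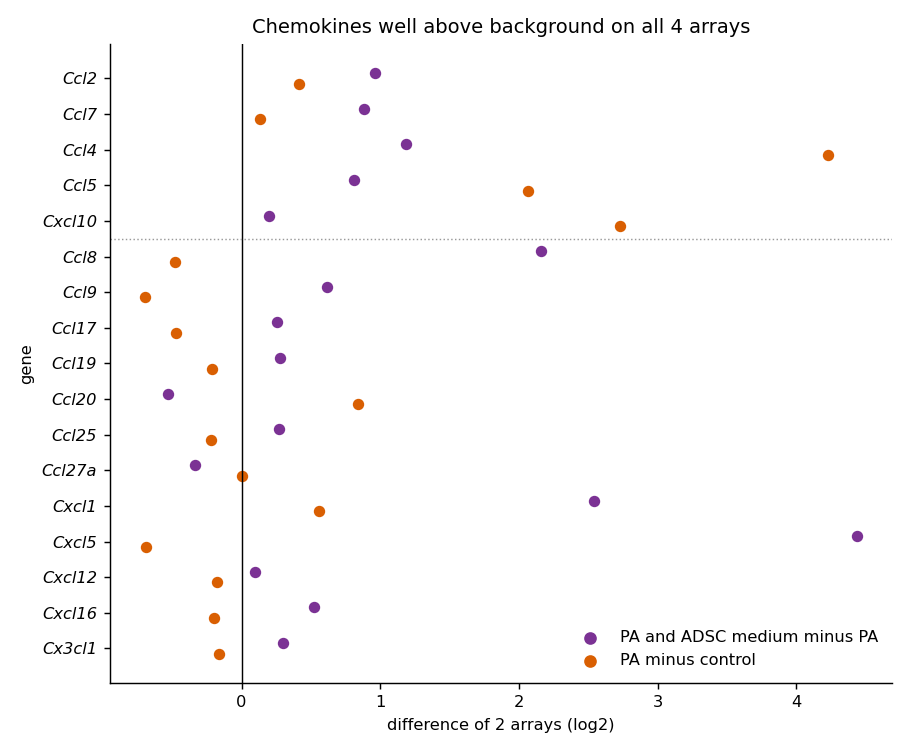
Difference (log2) of PA and ADSC medium from PA, and of PA from control, for every chemokine of the members and the other lists that was well above background on all 4 arrays, with members above the dotted line. Ccl4, Ccl5 and Cxcl10 have the larger difference with PA, whereas Ccl8, Cxcl1 and Cxcl5 have the larger one with ADSC medium added to PA (2.16, 2.54 and 4.44).

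Of 17 genes for chemokine receptors, scavengers and a processing peptidase, 6 were compared for PA against control. Ccr1, Ccr2 and Cxcr3 were not well above background on any array. Ccr3, another receptor of Ccl5 and Ccl7, was near the floor, at 2.53 with PA and ADSC medium (not well above background) and at 2.99 to 3.08 on the other 3 arrays. Ccrl2, an atypical receptor that binds chemerin, was the one gene of these 6 that was at least 2-fold higher with PA than in control (1.09% of all genes). Its level was 5.21 against 3.60 (3.06-fold). The scavenging receptors Ackr1, Ackr2 and Ackr3 were well above background on all 4 arrays. Of these, Ackr2 was near the floor, at 2.53 to 2.97, and Ackr1 was dim, at 3.22 to 3.60. Ackr3, which binds Cxcl11, had levels of 7.13 with PA and ADSC medium, 6.72 with PA, 7.63 with ADSC medium and 7.32 in control, and was 1.52-fold lower with PA than in control. Dpp4, a peptidase that trims Cxcl10, was not well above background on any array.

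Genes of the interferon pathway, which is known to induce the Cxcr3 ligands and Ccl5, were measured on the same arrays. Of 18 compared, 6 were at least 2-fold higher with PA than in control (1.09% of all genes) and none lower (0.599%). The median was 0.30 (all genes, -0.008). Ifnb1, which encodes interferon beta, had levels of 4.90 with PA and ADSC medium and 5.53 with PA. Its levels of 1.51 with ADSC medium and 1.41 in control were not well above background, so that it was at least 8.61-fold higher with PA than in control. Ifng was not well above background on any array. The interferon-induced factor Irf7 was 4.69-fold higher, Stat2 3.23-fold and Irf9 2.16-fold, as was Usp18, an inhibitor of interferon signalling, by 5.44-fold. Irf1, another interferon-induced factor, differed by 0.55 with PA from control. With PA and ADSC medium against PA, 15 of the 18 were lower by any amount. The share of all genes lower by any amount was not counted, but their median was also below 0 (-0.02). None of the 18 was at least 2-fold lower (0.507% of all genes). The median of the 18 was -0.17, with Irf7 at -0.26 and Ifnb1 at -0.64. In that comparison Cxcl11 was lower (-0.78), while Cxcl9 (0.19) and Cxcl10 (0.20) were higher.

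Of 20 genes compared in the NF-kB list, 1 was at least 2-fold higher with PA than in control (1.09% of all genes) and none lower (0.599%). This was Tlr3, the endosomal sensor of double-stranded RNA, at a level of 8.14 against 6.14. The differences of the NF-kB subunit genes were 0.66 for Relb, 0.38 for Nfkb2, 0.29 for Rela, 0.03 for Nfkb1 and -0.23 for Rel. Tnf, Il1a and Il1b, which encode inducers of NF-kB, were not well above background on any array. With PA and ADSC medium against PA, Nfkbiz, which encodes a nuclear cofactor of NF-kB, was 2.35-fold higher. No other gene of the list passed 2-fold (1.75% of all genes were higher and 0.507% lower).

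Macrophages and T cells are the better known sources of Ccl3, Ccl4 and Ccl5, and their markers were read on the same arrays. Of 10 macrophage markers, Adgre1, Ptprc, Clec4f and Mrc1 were not well above background on any array. Cd68, Csf1r, Cd14 and Lyz2 were on all 4, and Itgam and Fcgr1 on 2 each. The summed linear levels of the 10 were 1354 with PA and ADSC medium, 808 with PA, 1190 with ADSC medium and 844 in control. These sums were carried by Cd14 and were higher on the arrays with ADSC medium. Of 10 T and NK cell markers, 6 were not well above background on any array, among them Cd3d, Cd3g and Cd8a, while Cd3e, Cd4 and Gzmb were on all 4 and Nkg7 on 3. The sums were 143, 117, 149 and 133 in the same order. Gzmb, which encodes a granzyme, was 4.17-fold higher with PA and ADSC medium than with PA and 2.38-fold higher with ADSC medium than in control. Of 8 endothelial markers, Pecam1, Cdh5, Lyve1 and Emcn were on no array well above background, and Kdr, Tek, Stab2 and Vwf were on all 4. The sums were 1342 with PA and ADSC medium, 1119 with PA, 1007 with ADSC medium and 900 in control. Of 8 markers of adipose stromal cells or adipocytes, Adipoq, Plin1, Lep and Dpp4 were at background on all arrays. Fabp4, Pparg, Pi16 and Cd34 were well above it on all 4. The sums of the 8 were 14139 with PA and ADSC medium and 9464 with PA, against 12601 with ADSC medium and 9500 in control, carried by Cd34 and Fabp4. The sums of all 4 of these lists were higher with ADSC medium than without it, with PA and without PA. Those of a hepatocyte list and of the stellate and fibroblast list were lower in both cases. Of 6 macrophage markers compared on the arrays with PA, 3 were higher with ADSC medium and 3 lower. Of 5 compared on those without PA, 3 were higher and 2 lower. Lyz2 was lower in both cases (-0.88 with PA and -0.37 without), as was Itgam by bounds (-0.68 and -0.53). Of the 4 T and NK cell markers compared, Gzmb alone was higher in both cases and 3 were lower. Of the 4 endothelial markers compared, Vwf was higher with ADSC medium (0.58 with PA and 0.44 without) and Kdr lower (-0.30 and -0.35). Of the 4 adipose markers compared, Pparg (-0.68 with PA and -0.45 without) and Pi16 (-0.004 and -0.06) were lower in both cases. Fabp4 and Cd34 were higher in both. Ccl2, Ccl4, Ccl5, Ccl7 and Cxcl10 were also higher with ADSC medium in both cases. The part of these markers in the results was not tested.

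The genes most like a member were taken as those with the smallest root mean square difference of the profile over the 4 arrays, among 17354 other genes. For Ccl2 they were Gpr83 (0.030), Il15 (0.049) and Apon (0.054), of which Gpr83 was dim, with levels of 2.99 to 4.35. For Ccl7 they were P2ry10b (0.033), Sdcbp2 (0.050) and Ovgp1 (0.069). Il6, an inflammatory cytokine, came closest to Ccl5 (0.068), with PA against control at 2.26 and PA and ADSC medium against PA at 0.71. Atp13a4 (0.201) and Oasl1 (0.252) followed. The interferon-induced genes Ifit1 (0.153) and Ifit3 (0.182) were among the 3 closest to Cxcl10, with an unnamed transcript between them. For Ccl4 the values were larger, with Ifit3b (0.811), Zbp1 (0.815) and Ifit3 (0.841). Ccl3, Cxcl9 and Cxcl11 were not compared in this way, since they were not well above background on all 4 arrays. With 4 arrays and so many genes, likeness of this size is a description only.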

How the data were processed

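The 4 deposited array files hold the processed intensity of each spot, from which the authors' scanner software (Agilent Feature Extraction 12.1.1.1) had already subtracted the background and corrected trends inside an array, as stated per the file headers. These intensities carry no normalization between arrays. Quantile normalization by the authors is recorded in the design notes of the series, and R 3.5.1 in the submitters' processing notes.

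Here, control spots and 82 to 104 outlier-marked spots per array were left out, spots of a probe were averaged as log2, and the arrays were quantile-normalized with limma 3.58.1 in R 4.3.3. Genes were named by RefSeq accession (28680 probes) or else by the array's name, and stand for their brightest probe. A gene was compared where well above background on at least 1 of the 2 arrays, and the lowest such level replaced a dimmer value (lower bounds). These floors were 2.11 (PA and ADSC medium), 2.07 (PA), 2.30 (ADSC medium) and 2.43 (control). The text names all members, genes of the fixed lists at least 2-fold different in PA against control or in PA and ADSC medium against PA, set receptors and factors, and the 3 genes most like each of the 5 members well above background on all 4 arrays. Ccl6, Ccl9, Ccl11, Ccl12, Ccl20, Cxcl12, Art3, Dpp4, Ackr1, Ackr2, Ackr3, Ifng, Nfkb2, Relb, Rel, Tnf, Il1a, Il1b and the cell type markers singled out were named beyond that rule after their values were seen. Some items of the lists are not reported here. Members and lists were chosen with earlier results of these data known. The steps were tested on simulated data. Python 3.11.15 with pandas 2.3.3 was used.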

Additional observations from a re-analysis of the deposited data

Results flagged for a closer look

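Of the members, the listed genes and the markers named above, and among those well above background on all 4 arrays, genes were singled out here when the difference with 1 treatment had opposite signs with and without the other and both differences exceeded 2 times the SD between single spots. That SD leaves out the variation between arrays and cultures. With 1 array per condition, this was not tested. No chemokine among the 8 members met it. Ccl8 differed by 0.73 with PA in the presence of ADSC medium and by -0.48 in its absence. Cxcl5 differed by 1.95 with PA in the presence of ADSC medium and by -0.69 in its absence. Smaller opposite differences with PA, on the arrays with and without ADSC medium, were 0.20 and -0.18 for Cxcl12, 0.21 and -0.20 for Acta2, and 0.30 and -0.27 for Cd14. For ADSC medium, the interferon factor Irf1 differed by -0.23 on the arrays with PA and by 0.15 on those without it, and Stat2 by -0.21 and by 0.18. Over 17355 genes, the PA difference with minus without ADSC medium ran from -0.48 (5th percentile) to 0.52 (95th). Cxcl12, Acta2, Irf1 and Stat2 lay inside this range, and Ccl8, Cxcl5 and Cd14 above it.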

How the results depend on the processing

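No paired analysis was possible because each condition has 1 array. The member differences in 5 comparisons and the excess of the PA difference with ADSC medium gave 159 values under 4 alternatives. Of these, 158 kept their sign, the exception being Ccl4 with normexp, given above. Many of them could not change sign. Averaging the probes of a gene altered only Ccl5 and Ccl7, and leaving out the filter altered only lower bounds. A lower bound keeps its sign by construction, since one of opposite sign was left out. The number of members at least 2-fold different stayed within 1.5 times for PA against control, PA and ADSC medium against ADSC medium, and PA and ADSC medium against control. For PA and ADSC medium against PA it was 1, but 2 after scaling to the 75th percentile (Ccl2 added), 0 with normexp, 2 without the filter on dim probes and 5 at 1.5-fold, of which 4 were higher and 1, Cxcl11, lower. For ADSC medium against control it was 1, but 0 with normexp and 2 without the filter (1 higher and 1 lower). The normexp offset compresses dim probes by construction. For all genes, the share at least 2-fold higher with PA than in control was 1.09%, 0.577% with normexp, 2.48% without the filter and 2.92% at 1.5-fold. The share lower was 0.599%, 0.0599%, 2.06% and 3.27% in the same order. In the other comparisons the share higher was 0.105% to 0.809% with normexp and 2.33% to 3.36% without the filter, and 2.31% to 5.25% at 1.5-fold. Against control, Ccl7 with PA and ADSC medium was under 2-fold when its probes were averaged (0.96 on the log2 scale). Ccl3, Cxcl9 and Cxcl11 are limited by their signal over background.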
